A study of Homo sapiens with 6 samples.

Results

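Genes of inositol trisphosphate (IP3) receptors and of IP3 turnover were followed in SW480 liver metastases in which ITPR3 was targeted. They were the 3 receptor genes, the gene of the receptor-binding protein ITPRIP and that of its sequence relative ITPRIPL2. The others encode enzymes that turn over IP3 and its products (3-kinases and phosphatases). The 10 genes were chosen by symbol (ITPR1, ITPR2, ITPR3, ITPRIP, ITPRIPL2, ITPKA, ITPKB, ITPKC, INPP5A and INPP1). Each matched 1 row of the 58884 gene rows, and all 10 were among the 15804 genes that passed the filter on low counts. SW480 is an established human colorectal cancer line. The sgITPR3 group was 3 libraries of SW480 cells carrying a guide RNA against ITPR3, and the sgCtrl group was 3 libraries of the same line with a control guide. Cells of both groups had been delivered by portal injection and had grown as liver metastases in NSG mice, which lack mature lymphocytes but keep their own liver and myeloid cells. The labels give no age of the mice, no time of harvest and do not tie libraries to animals, so the spread behind every p-value is that between libraries and may be technical. The labels state that the knockout was checked by Western blot, but the sources used here do not say where the guide cuts or whether the cells were a clone or a pool.

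IP3 is made at the plasma membrane when phospholipase C cleaves a phosphoinositide lipid, and it opens IP3 receptors, which are tetrameric channels that release calcium from the endoplasmic reticulum. The signal ends when IP3 loses a phosphate to a 5-phosphatase or gains one from a 3-kinase, and further phosphatases return the inositol ring for reuse. In epithelial cells the receptor types are expressed together, and ITPR3 is the type best known from secretory and gut epithelia.

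Libraries held 19140055 to 23943797 counts. A single count was 0.0405 to 0.0538 CPM (counts scaled to library size). Tags were read from the 3′ ends of transcripts, so CPM were not divided by gene length, and a level here is a level of transcript ends. Mitochondrially encoded genes took 19.6% to 21.3% of counts and ribosomal protein genes 7.16% to 7.73%. Of the 9 colorectal epithelial markers 7 were tested, and their list summed to 2025 to 2079 CPM in the sgITPR3 libraries and 2410 to 2798 CPM in the sgCtrl libraries. Its members went both ways, with 3 lower (KRT8, KRT19 and EPCAM), 2 higher (CDX2 and VIL1) and 2 that did not pass. The 6 macrophage markers summed to at most 0.777 CPM in sgITPR3 and 0.646 CPM in sgCtrl (C1QA and C1QB at 0 in every library), and the 4 endothelial markers to at most 0.670 CPM in sgITPR3 and 0.645 CPM in sgCtrl. The 14 hepatocyte markers (APOC3 at 0) summed to 150 to 301 CPM in sgITPR3 and 66.4 to 251 CPM in sgCtrl, the 6 stellate cell and fibroblast markers (LUM at 0) to 8.61 to 10.7 CPM in sgITPR3 and 6.03 to 6.51 CPM in sgCtrl, and the 4 erythroid markers to 4.84 to 6.39 CPM in sgITPR3 and 0.587 to 1.34 CPM in sgCtrl. Of 8 hepatocyte markers tested, APOA1 was higher (log2 fold change 1.06), SERPINA1 was lower (-1.64) and 6, ALB among them, did not pass. The only stellate cell and fibroblast marker tested, COL1A1, was higher in sgITPR3 (log2 fold change 0.48). The only erythroid markers tested, HBA1 and HBA2, were both higher in sgITPR3 (2.78 and 2.51). The host cells are of mouse, and mouse cells were depleted after collagenase digestion per the labels' protocols. The counts are of human genes, and how mouse reads were handled is not stated. Mouse RNA can enter these sums only where its reads match a human gene. A low sum therefore does not show that such cells were absent, and ALB does not measure the amount of liver RNA. Apart from the ALB values given below, the part of RNA from host cells in the results was not tested.

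Of the 10 genes, 7 were lower in sgITPR3 metastases, 0 were higher and 3 did not pass (edgeR quasi-likelihood test, adjusted p under 0.05 over 15804 genes). Those that fell were ITPR3, ITPR2, ITPRIP, ITPRIPL2, ITPKA, ITPKC and INPP1, and those that did not pass were ITPR1, ITPKB and INPP5A. Across all tested genes 11.9% were lower and 11.6% were higher (23.5% in either direction). Among tested genes that averaged 5 CPM or more, a class set after the values were seen, 15.7% were lower and 11.2% were higher. The median log2 fold change of the 10 genes was -0.44, against 0.00086 over all tested genes. The 10 genes include ITPR3, the targeted gene, and were chosen with earlier results of these data known. Their share of falls and their median are therefore no test of the group. The groups did not overlap in CPM for 7 of the 10 genes, the same 7 that fell, against 39.3% of all tested genes. In bulk RNA, fewer cells that express a gene and less RNA per cell cannot be told apart.

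**Figure D1:**
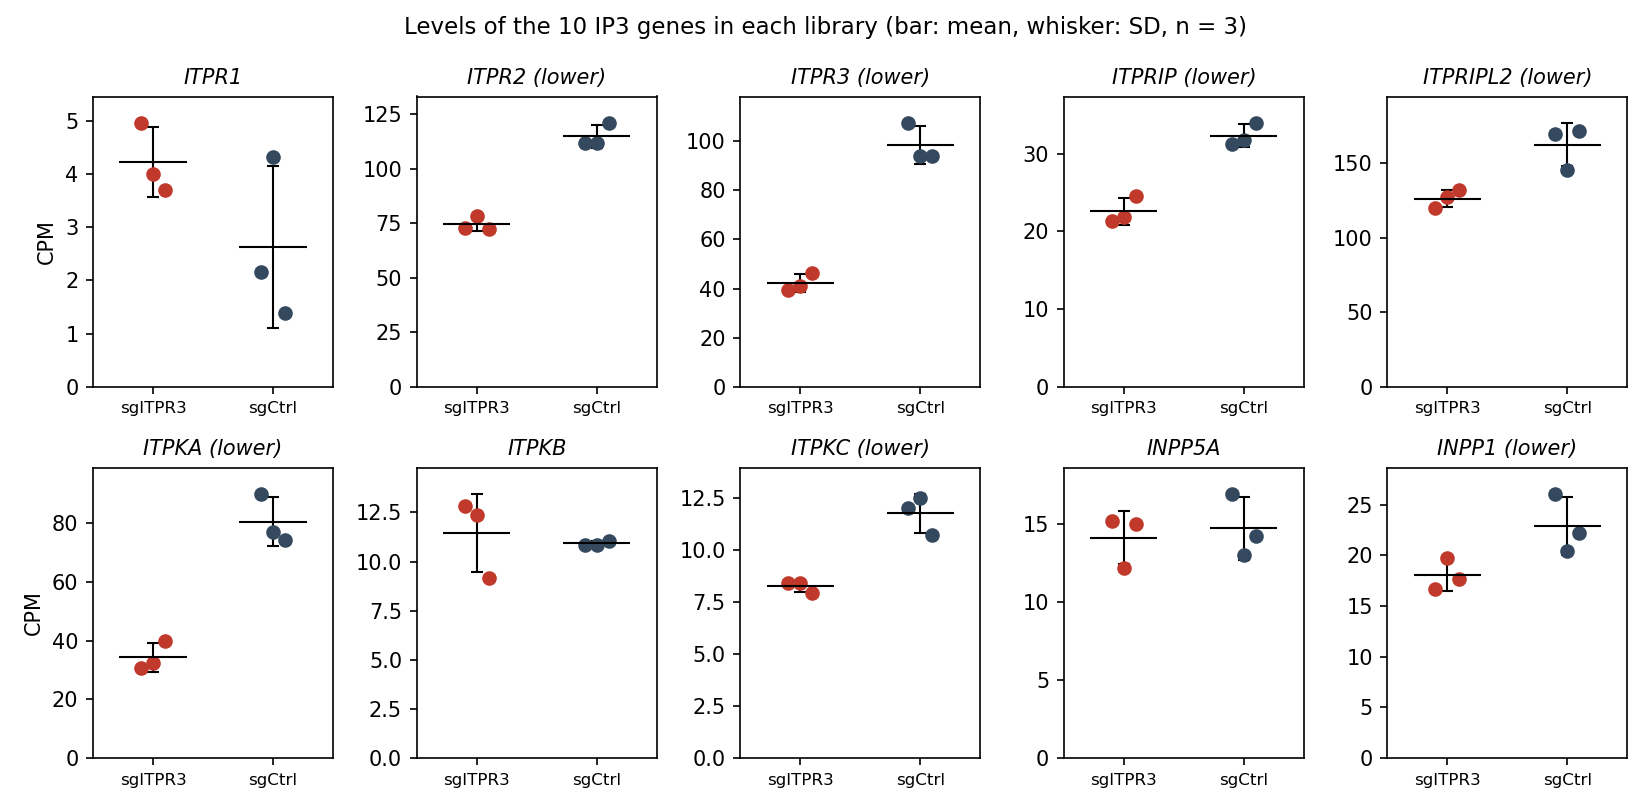
CPM (y axis, from 0 in each panel) of each of the 10 genes in the 3 sgITPR3 and the 3 sgCtrl libraries. Points are libraries, the horizontal bar is the mean and the whisker the SD; panels marked lower are the 7 genes that passed the edgeR test. In those 7 panels every sgITPR3 point lies below every sgCtrl point, and in the panels of ITPR1, ITPKB and INPP5A the groups overlap.

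ITPR3 encodes the type 3 IP3 receptor and was the gene targeted. It lies on chromosome 6 from 33620365 to 33696574 (GRCh38, plus strand). Its level was 39.4, 41.0 and 46.2 CPM in sgITPR3 replicates 1 to 3, against 108, 93.9 and 94.2 CPM in sgCtrl replicates 1 to 3. Every sgITPR3 library lay below every sgCtrl library, and transcript remained in all 3 sgITPR3 libraries, at 897 to 1014 counts. This is a 2.34-fold fall (log2 fold change -1.22, SE 0.083, 95% interval -1.40 to -1.05, edgeR adjusted p = 1.28e-07). Of the 15804 tested genes, 199 had a lower log2 fold change. A tag from the 3′ end can lie outside the edited part of the gene, so these counts do not measure the protein. UQCC2, a mitochondrial assembly factor gene, has exons that overlap those of ITPR3 on the opposite strand. It lies from 33694293 to 33711727, so the overlap is at the 3′ end of ITPR3. UQCC2 averaged 24.4 ± 1.31 CPM in sgITPR3 and 24.9 ± 1.597 CPM in sgCtrl (SD, n = 3 each). It did not pass (log2 fold change -0.029, edgeR adjusted p = 0.854).

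ITPR2 encodes the type 2 receptor, which among the receptor types binds IP3 most tightly. It lies on chromosome 12 from 26336515 to 26833198 (minus strand). Its level was 72.8, 78.2 and 72.5 CPM in the sgITPR3 libraries, against 112, 112 and 121 CPM in the sgCtrl libraries. All sgITPR3 libraries were lower than all sgCtrl libraries, and the gene fell 1.54-fold (log2 fold change -0.62, SE 0.069, 95% interval -0.77 to -0.48, edgeR adjusted p = 1.63e-05). ITPR2 held more tags than ITPR3 in every library of both groups. The distance between the 2 genes was wider in sgITPR3, where ITPR2 averaged 74.5 ± 3.20 CPM and ITPR3 42.2 ± 3.58 CPM, than in sgCtrl, where ITPR2 averaged 115 ± 5.31 CPM and ITPR3 98.5 ± 7.77 CPM (SD, n = 3 each).

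ITPR1 encodes the type 1 receptor, the main type of neurons, and was the lowest of the 10 genes in both groups. It lies on chromosome 3 from 4493345 to 4847840 (plus strand). Its counts were 115, 99 and 72 in the sgITPR3 libraries, which is 4.97, 4.01 and 3.71 CPM, against 40, 87 and 26 counts in the sgCtrl libraries, which is 2.15, 4.33 and 1.39 CPM. The groups overlapped, because sgCtrl replicate 2 lay within the sgITPR3 range. The gene did not pass (log2 fold change 0.68, SE 0.317, edgeR adjusted p = 0.138), and its 95% interval of 0.0037 to 1.36 leaves room for a rise of up to 2.57-fold. ALB, the albumin gene of hepatocytes, was at 232, 153 and 111 CPM in the sgITPR3 libraries and at 33.8, 170 and 21.6 CPM in the sgCtrl libraries. Replicate 2 of sgCtrl was thus also the sgCtrl library with the most ALB. Ranked by ITPR1 or by ALB, the libraries of both groups together fell in the same order. The cause of this was not tested. Leaving out single libraries moved the estimate both ways: without sgCtrl replicate 3 it was 0.38 (edgeR adjusted p = 0.401), and without sgCtrl replicate 2 ITPR1 was called higher (log2 fold change 1.25, edgeR adjusted p = 0.00223), as it was with no filter on low counts (0.68, edgeR adjusted p = 0.0312), and with the ALB level as a covariate it stood at a log2 fold change of -0.013 (edgeR adjusted p = 0.986). A transcript named only as ENSG00000235978, whose exons overlap those of ITPR1 on the opposite strand, was at 2.38 ± 0.509 CPM in sgITPR3 and 1.25 ± 0.161 CPM in sgCtrl (SD, n = 3 each), a rise by the same test (log2 fold change 0.93, edgeR adjusted p = 0.0324). The sources used here do not say whether counting used strand, so reads of such a pair may not be separated.

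**Figure D2:**
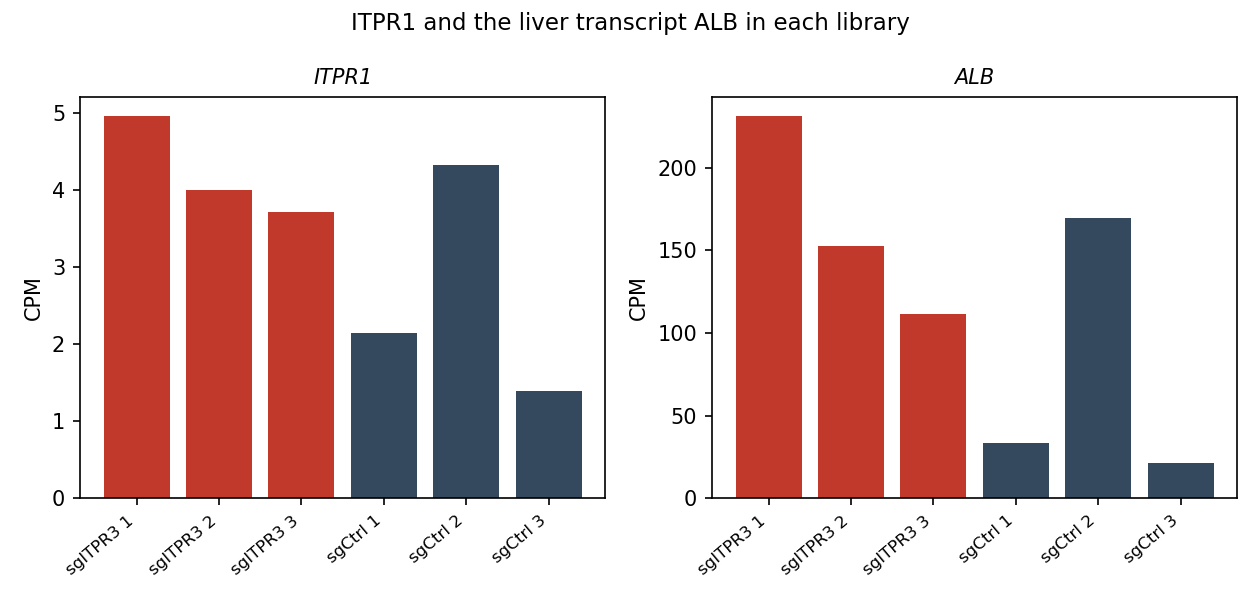
CPM of ITPR1 (left) and of the hepatocyte transcript ALB (right) in each library, sgITPR3 in red and sgCtrl in dark blue, on axes from 0. Replicate 2 of sgCtrl stands above the other sgCtrl libraries in both panels, at 4.33 CPM of ITPR1 and 170 CPM of ALB. The libraries of both groups together rank in the same order in both panels.

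The 3 receptor genes together held 117, 123 and 122 CPM in the sgITPR3 libraries, against 221, 210 and 217 CPM in the sgCtrl libraries, a 1.79-fold lower sum. Of the difference of -95.1 CPM between group means, ITPR3 made up 59.2% and ITPR2 42.5%, with ITPR1 going the other way (-1.69%). ITPR3 tags were 33.6% (exact 95% interval 31.9% to 35.4%), 33.3% (31.6% to 35.0%) and 37.8% (35.8% to 39.7%) of receptor tags in sgITPR3 replicates 1 to 3. In sgCtrl replicates 1 to 3 they were 48.5% (47.0% to 50.1%), 44.7% (43.2% to 46.2%) and 43.5% (41.9% to 45.0%). These intervals cover counting error only, and those of the 2 groups did not meet. The mean share was 34.9% ± 2.48 in sgITPR3 and 45.6% ± 2.64 in sgCtrl (SD, n = 3 each), a difference of -10.7 points with an exact two-sided permutation p = 0.1, the smallest that 3 against 3 libraries allow. ITPR2 accordingly held 61.6% ± 2.17 of receptor tags in sgITPR3 and 53.2% ± 2.70 in sgCtrl, and ITPR1 3.51% ± 0.644 in sgITPR3 and 1.22% ± 0.742 in sgCtrl (SD, n = 3 each).

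ITPRIP and its sequence relative ITPRIPL2 both fell. ITPRIP, which encodes a protein that binds IP3 receptors and tunes their inhibition by calcium (chromosome 10, 104309698 to 104338448, minus strand), was at 21.4, 21.8 and 24.6 CPM in the sgITPR3 libraries, against 31.2, 31.8 and 34.0 CPM in the sgCtrl libraries. The libraries of each group lay close together and did not meet those of the other (log2 fold change -0.52, SE 0.090, 95% interval -0.71 to -0.33, edgeR adjusted p = 8.08e-04). ITPRIPL2, a relative of ITPRIP by sequence (chromosome 16, 19113932 to 19121629, plus strand), was at 120, 127 and 132 CPM in sgITPR3, against 170, 146 and 172 CPM in sgCtrl, the highest level of the 10 genes in each group. It was lower in sgITPR3 by 0.36 on the log2 scale (log2 fold change -0.36, SE 0.076, 95% interval -0.53 to -0.20, edgeR adjusted p = 0.00337), with sgCtrl replicate 2 nearest to the sgITPR3 libraries. Its call ended with the ALB level as a covariate (log2 fold change -0.21, edgeR adjusted p = 0.114).

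The IP3 3-kinases add a phosphate that turns IP3 into a tetrakisphosphate, and their 3 genes did not move alike. ITPKA (chromosome 15, 41493393 to 41503551, plus strand), whose product also bundles actin and is best known from neurons, was at 30.5, 32.4 and 39.8 CPM in the sgITPR3 libraries, against 89.9, 77.1 and 74.2 CPM in the sgCtrl libraries. Every sgITPR3 library lay below every sgCtrl library. The gene fell 2.35-fold (log2 fold change -1.23, SE 0.103, 95% interval -1.45 to -1.01, edgeR adjusted p = 9.54e-07), and 196 of the 15804 tested genes had a lower log2 fold change. The point estimate for ITPKA lay next to that of ITPR3, the targeted gene, and their intervals overlap.

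ITPKB (chromosome 1, 226631690 to 226739323, minus strand), a 3-kinase needed for lymphocyte development in mice, was at 12.8, 12.3 and 9.18 CPM in the sgITPR3 libraries, against 10.9, 10.8 and 11.1 CPM in the sgCtrl libraries. Replicate 3 of sgITPR3 lay below and the other 2 above every sgCtrl library. The gene did not pass (log2 fold change 0.073, SE 0.137, edgeR adjusted p = 0.750), with a 95% interval from -0.22 to 0.37 that holds changes between 0.858-fold and 1.29-fold. ITPKC (chromosome 19, 40717103 to 40740860, plus strand), encoding a kinase shown in rat to move between nucleus and cytoplasm, was at 8.42, 8.42 and 7.94 CPM in sgITPR3, against 12.0, 12.5 and 10.7 CPM in sgCtrl. It fell 1.42-fold with no overlap between groups (log2 fold change -0.51, SE 0.125, 95% interval -0.78 to -0.24, edgeR adjusted p = 0.00862). ACTMAP, whose exons overlap those of ITPKC on the opposite strand, fell by a similar log2 fold change of -0.50 (7.96 ± 0.945 CPM in sgITPR3 and 11.3 ± 0.764 CPM in sgCtrl; SD, n = 3 each; edgeR adjusted p = 0.0150). COQ8B, the other gene that overlaps ITPKC on the opposite strand, was at 4.41 ± 0.906 CPM in sgITPR3 and 5.25 ± 0.277 CPM in sgCtrl (SD, n = 3 each). It did not pass (log2 fold change -0.26, edgeR adjusted p = 0.363). ACTMAP lies from 40740856 to 40751553, so it meets ITPKC only at the last bases of that gene. COQ8B lies from 40691529 to 40718207 and overlaps the start of ITPKC, away from its 3′ end.

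Together the 3-kinase genes held 51.7, 53.1 and 57.0 CPM in the sgITPR3 libraries, against 113, 100.5 and 95.9 CPM in the sgCtrl libraries, a 1.91-fold lower sum. ITPKA made up 93.9% of that difference, ITPKC 7.15% and ITPKB -1.08%. ITPKA remained the kinase with the most tags in every library, at 63.3% ± 5.87 of 3-kinase tags in sgITPR3 and 77.9% ± 1.56 in sgCtrl, and ITPKB held 21.4% ± 4.63 in sgITPR3 and 10.6% ± 0.951 in sgCtrl (SD, n = 3 each). In sgITPR3 replicate 3 ITPKA held 70.0% (exact 95% interval 67.2% to 72.6%), nearer to the sgCtrl libraries than in replicates 1 (58.9%, 56.1% to 61.7%) and 2 (60.9%, 58.2% to 63.6%). The kinase shares were computed after the values were seen and carry no test.

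**Figure D3:**
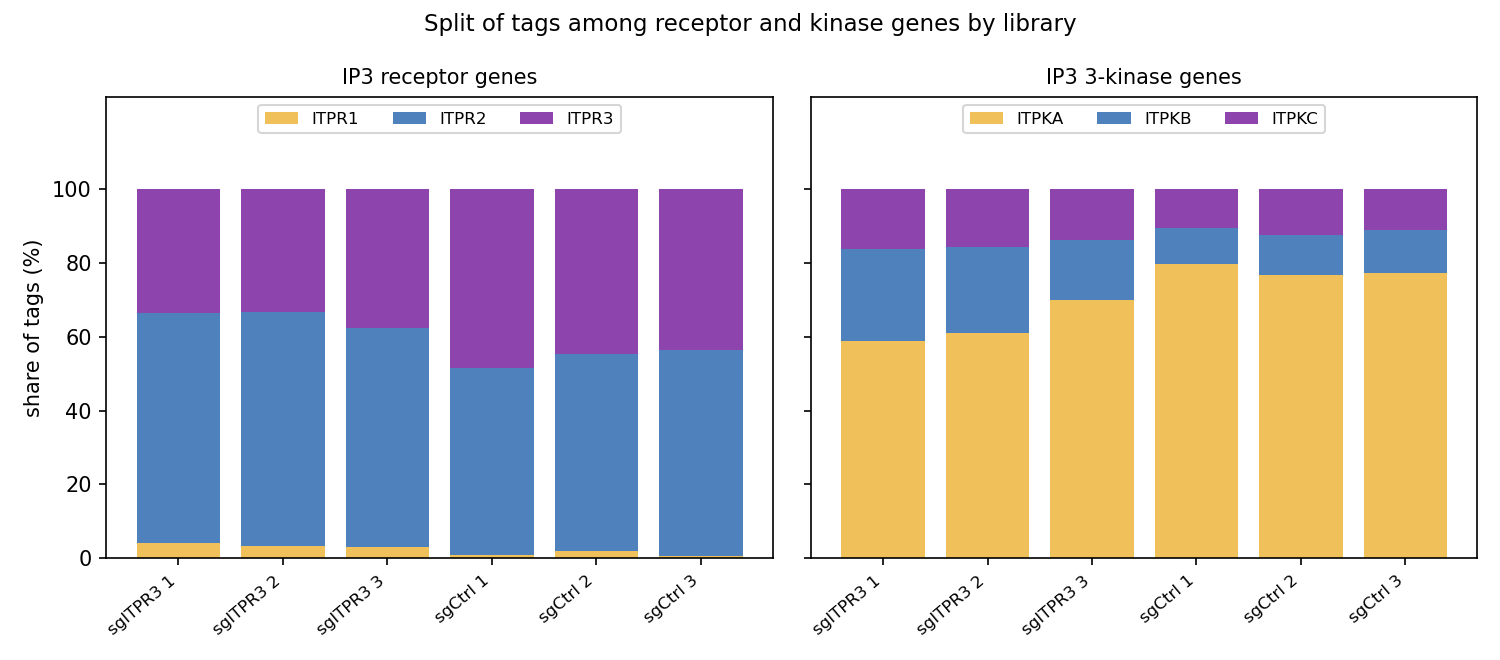
Share of tags (y axis, percent, summing to 100 in each bar) among the 3 IP3 receptor genes (left) and the 3 IP3 3-kinase genes (right) in each library. ITPR3 takes 33.3% to 37.8% of receptor tags in the sgITPR3 libraries and 43.5% to 48.5% in the sgCtrl libraries, and ITPKA takes 58.9% to 70.0% of kinase tags in sgITPR3 and 76.7% to 79.7% in sgCtrl.

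Sequences before the starts of ITPKA and ITPKB are shown because, of the 3 kinases, these 2 have the lowest and the highest log2 fold change. They are the 200 bases from 250 to 51 bases before the RefSeq start of each gene (GRCh38.p14), on the strand of the gene, at chr15:41493624-41493823 (plus strand) and chr1:226739333-226739532 (minus strand), and no annotated exon of GENCODE release 29 lies in either. GENCODE also annotates a transcript of ITPKA that starts further upstream, at 41493393, so the ITPKA stretch precedes the RefSeq start but lies in an intron of that transcript. Capitals mark matches on either strand to the GC box GGGCGG or to the NFAT core GGAAA.
ITPKA: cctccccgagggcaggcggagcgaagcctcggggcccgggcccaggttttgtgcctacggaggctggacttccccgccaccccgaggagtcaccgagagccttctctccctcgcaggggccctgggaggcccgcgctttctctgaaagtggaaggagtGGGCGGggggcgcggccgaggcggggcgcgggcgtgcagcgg
ITPKB: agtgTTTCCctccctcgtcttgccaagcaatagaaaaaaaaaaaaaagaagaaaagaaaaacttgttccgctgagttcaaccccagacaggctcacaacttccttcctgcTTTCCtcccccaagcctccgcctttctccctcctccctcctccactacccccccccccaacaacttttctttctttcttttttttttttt
The ITPKA stretch is 74.5% G and C and holds 1 GC box and 0 NFAT cores, and the ITPKB stretch is 46% G and C and holds 0 GC boxes and 2 NFAT cores. Over 35116 promoter windows of the same length the median was 57.5% G and C, 35% held a GC box and 48.5% an NFAT core. Neither stretch holds an AP-1 motif (TGANTCA, in 5.27% of windows) or a TATA box (TATAAA, in 7.63%), both strands searched. A match is a description of these letters and not evidence of binding. Of the 10 genes, 8 were in the promoter table.

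Of the 2 phosphatase genes, INPP1 fell and INPP5A did not pass. INPP5A (chromosome 10, 132537820 to 132783480, plus strand) encodes the 5-phosphatase that inactivates IP3. It was at 15.2, 12.1 and 15.0 CPM in the sgITPR3 libraries, against 16.9, 13.0 and 14.2 CPM in the sgCtrl libraries, and the groups overlapped. It did not pass (log2 fold change -0.060, SE 0.130, edgeR adjusted p = 0.784), with a 95% interval of -0.34 to 0.22, or 0.791-fold to 1.16-fold. INPP1 (chromosome 2, 190343470 to 190371665, plus strand) encodes a 1-phosphatase that acts further along the return to inositol. It was at 16.6, 19.7 and 17.7 CPM in sgITPR3, against 26.0, 20.4 and 22.2 CPM in sgCtrl, and the groups came within 1 CPM of each other. It fell 1.27-fold (log2 fold change -0.34, SE 0.112, 95% interval -0.58 to -0.10, edgeR adjusted p = 0.0382). The call of INPP1 ended in 4 of the 6 fits that left out 1 library, without sgITPR3 replicate 1 (edgeR adjusted p = 0.143) or 3 (0.0942), without sgCtrl replicate 1 (0.152) or 3 (0.0647), and also with the ALB level as a covariate (0.387). HIBCH, which overlaps INPP1 on the opposite strand, moved the other way (log2 fold change 0.41, edgeR adjusted p = 0.00263). It was at 36.3 ± 2.08 CPM in sgITPR3 and 27.3 ± 1.22 CPM in sgCtrl (SD, n = 3 each). HIBCH lies from 190189735 to 190344193 and overlaps the start of INPP1, away from its 3′ end.

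**Figure D4:**
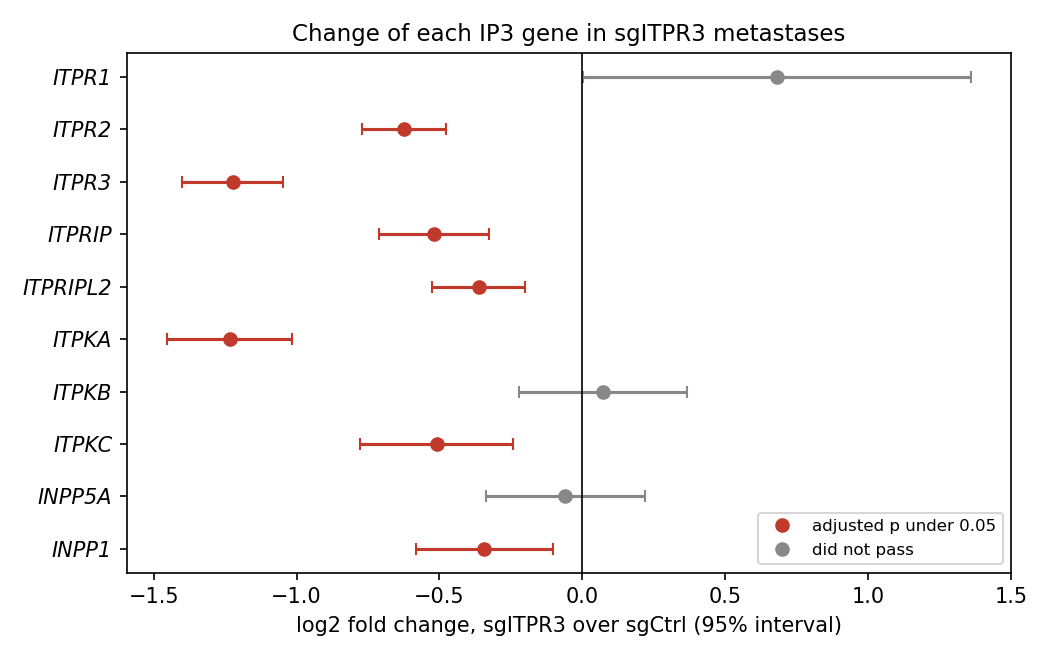
Log2 fold change of sgITPR3 over sgCtrl (x axis) for each of the 10 genes (y axis), with 95% intervals from the edgeR fit over 3 libraries per group. ITPR3 and ITPKA lie at -1.22 and -1.23, the other 5 genes in red between -0.62 and -0.34, and ITPR1, ITPKB and INPP5A in grey did not pass.

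By level, ITPRIPL2 was first of the 10 genes in both groups and ITPR2 second. In sgITPR3 ITPR3 and ITPKA followed at 42.2 ± 3.58 and 34.2 ± 4.95 CPM, with library ranges that met, and in sgCtrl at 98.5 ± 7.77 and 80.4 ± 8.35 CPM, with ranges that did not (SD, n = 3 each). ITPRIP and INPP1 came next, at 22.6 ± 1.74 and 18.0 ± 1.59 CPM in sgITPR3 and 32.3 ± 1.44 and 22.9 ± 2.86 CPM in sgCtrl. INPP5A, ITPKB and ITPKC lay between 7.94 and 16.9 CPM in all libraries, and ITPR1 was last.

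Other genes of inositol phosphate handling and of IP3 receptor control were followed in 5 lists of 65 genes. Of 53 tested, 6 rose, 6 fell and 41 did not pass, which is 22.6% called against 23.5% of all tested genes, with a median log2 fold change of -0.026. Of the 7 tested inositol phosphate kinases other than the 3-kinases, 2 fell and 1 rose. IPMK, a multikinase that can also phosphorylate IP3, averaged 9.40 ± 1.63 CPM in sgITPR3 and 12.9 ± 0.324 CPM in sgCtrl (log2 fold change -0.46, edgeR adjusted p = 0.0254). ITPK1, which acts downstream of the 3-kinases, averaged 38.5 ± 2.70 CPM in sgITPR3 and 45.9 ± 3.68 CPM in sgCtrl (-0.25, edgeR adjusted p = 0.0480). Both calls ended without single libraries, for IPMK in 3 and for ITPK1 in 5 of the 6 such fits, and with the ALB level as a covariate; that of ITPK1 also ended with DESeq2 and with a filter of 1 CPM in 3 libraries (adjusted p = 0.0504 in each). PPIP5K2, which makes inositol pyrophosphates, rose to 43.4 ± 2.42 CPM in sgITPR3, against 31.1 ± 1.21 CPM in sgCtrl (0.48, edgeR adjusted p = 6.20e-04).

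Of 17 tested inositol phosphate and phosphoinositide phosphatases, 2 rose, 1 fell and 14 did not pass. INPPL1, a lipid 5-phosphatase also called SHIP2, was at 98.9 ± 5.59 CPM in sgITPR3 and 81.6 ± 4.74 CPM in sgCtrl (log2 fold change 0.28, edgeR adjusted p = 0.0126). NUDT3 and NUDT4, which remove pyrophosphates from inositol, went opposite ways: NUDT3 averaged 58.2 ± 2.65 CPM in sgITPR3 and 74.1 ± 3.63 CPM in sgCtrl (-0.35, edgeR adjusted p = 0.00281), and NUDT4 76.2 ± 0.505 CPM in sgITPR3 and 61.1 ± 6.55 CPM in sgCtrl (0.32, edgeR adjusted p = 0.00985). NUDT4 has a near-identical copy, so its counts are uncertain. Of 4 tested genes of inositol supply 1 rose, SLC2A13, an inositol transporter gene near the limit of detection. It was at 0.740 ± 0.228 CPM in sgITPR3 and 0.192 ± 0.0813 CPM in sgCtrl (edgeR adjusted p = 0.0182). Its call ended in separate fits that left out sgITPR3 replicate 1, sgITPR3 replicate 2 or sgCtrl replicate 3, and with the ALB level as a covariate.

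Among 17 tested receptor relatives and binding partners, 1 fell, 2 rose and 14 did not pass. IRAG1, encoding a protein that links IP3 receptors to cyclic GMP signalling, fell to 63.2 ± 5.09 CPM in sgITPR3, against 94.7 ± 6.17 CPM in sgCtrl (log2 fold change -0.58, edgeR adjusted p = 1.02e-04). RYR1, encoding a ryanodine receptor, the other family of calcium release channels, rose to 3.24 ± 0.182 CPM in sgITPR3, against 1.15 ± 0.222 CPM in sgCtrl (1.49, edgeR adjusted p = 8.86e-04). CABP1, a calcium-binding protein gene, was at 0.976 ± 0.312 CPM in sgITPR3 and 0.281 ± 0.219 CPM in sgCtrl (edgeR adjusted p = 0.0257), and its call ended in 4 of the 6 fits without 1 library. Of 8 tested genes of receptor ubiquitination and degradation 2 fell. ERLIN1, part of the membrane complex that recognises activated receptors, averaged 35.5 ± 1.67 CPM in sgITPR3 and 44.1 ± 1.47 CPM in sgCtrl (-0.31, edgeR adjusted p = 0.00914). UBE2J1, a ubiquitin-conjugating enzyme of the endoplasmic reticulum, averaged 98.9 ± 4.50 CPM in sgITPR3 and 140 ± 7.33 CPM in sgCtrl (-0.50, edgeR adjusted p = 1.22e-04). Values in these lists are means ± SD over n = 3 libraries per group, and no list-wide test was made. INPPL1 and ERLIN1 also lost their calls in single settings (INPPL1 without sgITPR3 replicate 3 or sgCtrl replicate 1, ERLIN1 with the ALB level as a covariate).

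**Figure D5:**
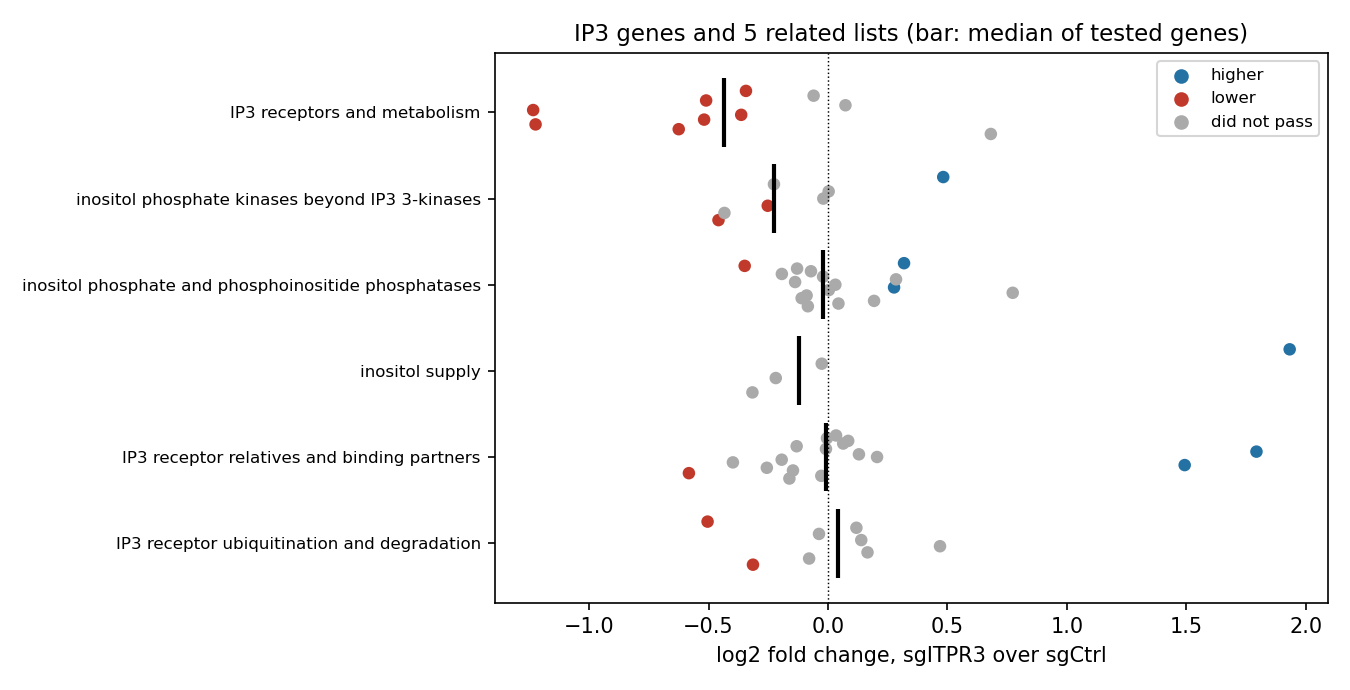
Log2 fold change of sgITPR3 over sgCtrl (x axis) for each tested gene of the IP3 group (top) and of the 5 related lists, with the list median as a black bar. Colours give genes that were higher, lower or did not pass in the edgeR test; the median is -0.44 in the IP3 group and between -0.23 and 0.041 in the other lists.

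Genes within 0.5 Mb of each of the 10 genes were also counted, the windows beyond those of ITPR2 and ITPR3 being added after values were seen. Near ITPR3, 23 genes were tested, of which 5 fell (21.7%, against 11.9% of all tested genes), 1 rose and 17 did not pass (median log2 fold change -0.20, range -1.17 to 1.27). Near ITPR2, 12 were tested, of which 1 fell (8.33%), 1 rose and 10 did not pass (median 0.036, range -0.30 to 0.56), so no neighbour had as low a log2 fold change as ITPR2. Near ITPR1, 1 of 6 fell and 1 rose. Near ITPKA 2 of 16 fell (12.5%) and 0 rose, near ITPKC 6 of 25 fell (24%) and 0 rose, near ITPKB 2 of 7 fell and 1 rose, and near ITPRIPL2 3 of 11 fell and 0 rose. None fell near ITPRIP, INPP5A or INPP1, where 0 of 8, 2 of 7 and 1 of 7 rose. These counts carry no test.

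The genes whose log2 CPM followed ITPR3 most closely over the 6 libraries, among 10623 genes that averaged 5 CPM or more, were LASTR, a long non-coding RNA (Pearson r 0.9996), IGFBP3, which encodes a binding protein of insulin-like growth factors (0.998), and NTSR1, the neurotensin receptor gene (0.998). LASTR averaged 5.10 ± 0.515 CPM in sgITPR3 and 13.6 ± 1.49 CPM in sgCtrl, IGFBP3 80.4 ± 5.59 CPM in sgITPR3 and 187 ± 8.89 CPM in sgCtrl, and NTSR1 7.22 ± 1.13 CPM in sgITPR3 and 39.7 ± 3.53 CPM in sgCtrl (SD, n = 3 each). For ITPR2 they were FERMT1, encoding the adhesion protein kindlin-1 (0.999), CD2AP, encoding a cytoskeletal adaptor (0.997), and ZBTB7C, encoding a zinc finger protein (0.997). FERMT1 averaged 96.1 ± 5.56 CPM in sgITPR3 and 147 ± 6.97 CPM in sgCtrl, close to the fold of ITPR2. CD2AP averaged 71.2 ± 1.30 CPM in sgITPR3 and 80.8 ± 0.884 CPM in sgCtrl and did not pass (log2 fold change -0.18, edgeR adjusted p = 0.0563). ZBTB7C averaged 16.9 ± 0.571 CPM in sgITPR3 and 30.8 ± 1.97 CPM in sgCtrl (SD, n = 3 each). With 2 groups that stand apart, such coefficients mainly describe the difference between groups.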

How the data were processed

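RNA of SW480 liver metastases was measured in 3 sgITPR3 and 3 sgCtrl libraries of polyadenylated RNA, made with the Lexogen 3' FWD kit per the labels' protocols after collagenase digestion and depletion of mouse cells. The authors' deposited table holds raw counts per gene. STAR 2.6.0a, featureCounts 1.6.3, DESeq2 and GRCh38 are named in the submitters' processing notes. Annotation release, strand setting and handling of mouse reads are not stated there. Gene positions are those of GENCODE release 29, and promoter sequences are RefSeq's (GRCh38.p14).

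Counts were analysed with R 4.3.3 and edgeR 4.0.16: filterByExpr (minimum count 10, 15804 of 58884 genes kept), TMM scaling (factors 0.961 to 1.03), and the quasi-likelihood F test of sgITPR3 against sgCtrl with Benjamini-Hochberg adjustment over all tested genes (threshold 0.05). The SE is the absolute log2 fold change over the square root of F. The common biological coefficient of variation came to 9.53%. Within groups, Pearson's r of log2 CPM was 0.991 to 0.995, and a chi-square of 5.51 to 10.6 per degree of freedom between pairs shows no repeated library. The procedure was also run on simulated counts with the same dispersion for every gene. Real counts need not share this, so that run does not vouch for the calls here. Alternatives were RLE scaling, other filters, a replicate block, leaving out each library, DESeq2 1.42.0, voom of limma 3.58.1, and the ALB level as a covariate.

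The 10 genes, the related lists and the alternatives were chosen with earlier results of these data known. Named outside the 10 are the passing list members (up to 4 per list), ALB, and the 3 genes most like ITPR3 and ITPR2; the genes overlapping a member were named after their values were seen.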

Additional observations from a re-analysis of the deposited data

How the results depend on the processing

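Of the 130 refits of single genes among the 10 IP3 genes, 117 kept their direction and their side of the threshold, 2 gained a call (both of ITPR1), 6 lost one (5 of INPP1, 1 of ITPRIPL2) and 5 changed sign, none of them from or to a call. Those were ITPR1 with the ALB level as a covariate (log2 fold change -0.013), ITPKB without sgITPR3 replicate 1 (-0.016, with a range up to 0.20 without 1 library), and INPP5A without sgITPR3 replicate 2 (0.037), without sgCtrl replicate 1 (0.046, the highest, against -0.15 for the lowest without 1 library) and with the ALB level as a covariate (0.055). ITPR2, ITPR3, ITPRIP, ITPKA and ITPKC kept their calls in all 13 alternatives, with log2 fold changes from -0.66 to -0.58, -1.29 to -1.15, -0.58 to -0.46, -1.36 to -1.15 and -0.61 to -0.47. Of the 10 genes, 6 to 8 were called without 1 library and 5 with the ALB level as a covariate. Over all genes 3717 were called, 2331 to 4261 without 1 library (2331 without sgITPR3 replicate 2) and 1960 with the ALB level as a covariate. The related lists held 12 called genes, 8 to 13 in the alternatives. The difference in ITPR3 share lay between -12.1 and -9.20 points without 1 library and was -9.98 points against ITPR2 and ITPR3 only. The cause of these changes was not tested. Deviations from the group means correlated at -0.031, 0.122 and 0.174 between same-numbered libraries. The last 2 values were the highest of all pairs across groups, but not every library correlated best with its own number. The labels name no batch, and 3 libraries per group cannot decide whether same-numbered libraries were handled together. The replicate block gave 3877 calls over all genes and 7 of the 10 genes. Depth limits ITPR1 most, with 26 to 115 counts per library.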
